A study of Mus musculus with 5 samples.

Results

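The KRAB zinc finger gene clusters examined here are 3 stretches of the mouse genome (mm9), chr2:175000000-178000000, chr4:145000000-147500000 and chr13:65000000-68000000. Their CpGs were taken where the count that follows reads of either kind was at least 10 in all 5 libraries. This left 4724 CpGs of 1780536 on the autosomes, or 0.265%, with 649 on chromosome 2, 2395 on chromosome 4 and 1680 on chromosome 13. At the edge of the rule, 132 CpGs entered with a lowest count of exactly 10, and 148 CpGs with a lowest count of 9 stayed out. The 4724 CpGs were 36.8% of the 12834 cluster CpGs listed in any library, against 43.9% over all autosomes, and the share was lowest on chromosome 2, at 28.2%. In 4 libraries that count was obtained from the total and the level, so the choice is independent of the level only under the reading of the total given below.

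KRAB zinc finger proteins are a large family of DNA-binding repressors that arose by tandem duplication, and many of them bind transposable elements. Through the KRAB domain they recruit TRIM28 (KAP1) and with it the lysine 9 methyltransferase SETDB1. The zinc finger genes themselves lie in domains rich in trimethylated lysine 9 of histone H3, a mark of heterochromatin that often coincides with DNA methylation. Histone H3 with methionine in place of lysine 9 or lysine 36 acts in a dominant way against the methyltransferases of that residue, and methylated lysine 36 is bound by the DNA methyltransferases DNMT3A and DNMT3B.

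DNA methylation was measured by reduced representation bisulfite sequencing, in which MspI, which cuts at CCGG, enriches CpG-rich fragments and bisulfite separates methylated from unmethylated cytosines. There was 1 wildtype (WT) library, 2 libraries (K36M) from mice with H3.3 that is dominant negative at lysine 36, and 2 libraries (K9M) from mice expressing H3.3 that is dominant negative at lysine 9. The K36M and K9M mice drank doxycycline at 2 mg/ml, the labels name no such treatment for WT, and the labels do not name the promoter or line that carries the mutant histones. The labels call the cells HSCs (hematopoietic stem cells) in one field and cells sorted from peripheral blood in another, nothing says that replicates are separate animals, and so p-values measure the spread between these libraries, which may be technical.

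Levels are relative levels. In 4 libraries the deposited total was read as a methylated count plus a second count that follows reads of either kind, and in K9M replicate 2 the total was read as the second count itself, a reading inferred from the values. The ratio of methylated to second count was divided by the plateau of each library, its median ratio at the most methylated 1 kb tiles, so that 100% stands for full methylation and single values can pass 100%. The median second count per cluster CpG was 47 for WT, 38 and 46 for K36M, and 36 and 46 for K9M. A tile is a 1 kb stretch with at least 3 of the CpGs, and the clusters held 75, 173 and 157 tiles on chromosomes 2, 4 and 13, or 405 in all. Intervals and limits on counts of 0 cover counting error only.

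Promoter sequences from RefSeq (build GRCm38.p6) were placed on the mm9 CpGs by the spacing of their CG dinucleotides, without converting coordinates. The 7 stretches below are those the promoter results turn on: Fv1 and Miip, which changed in K9M, Zfp640, the methylated zinc finger promoter, Zfp708 and Zfp933 as unmethylated ones, and Gm13165 and Zfp982, whose CG spacing fitted 2 places each. Each shows the 250 bases before the start of the gene on its own strand, 5′ to 3′, with CG in capitals.
Fv1: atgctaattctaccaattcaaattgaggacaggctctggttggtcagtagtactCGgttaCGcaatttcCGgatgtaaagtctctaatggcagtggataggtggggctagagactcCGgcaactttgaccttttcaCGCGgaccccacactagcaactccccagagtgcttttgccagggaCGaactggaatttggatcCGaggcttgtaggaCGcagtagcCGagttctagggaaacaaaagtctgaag
Miip: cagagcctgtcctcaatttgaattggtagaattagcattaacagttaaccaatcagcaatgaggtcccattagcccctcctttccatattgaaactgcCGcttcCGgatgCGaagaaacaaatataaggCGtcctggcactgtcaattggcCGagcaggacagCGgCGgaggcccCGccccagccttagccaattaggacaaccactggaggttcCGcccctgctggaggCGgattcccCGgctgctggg
Zfp640: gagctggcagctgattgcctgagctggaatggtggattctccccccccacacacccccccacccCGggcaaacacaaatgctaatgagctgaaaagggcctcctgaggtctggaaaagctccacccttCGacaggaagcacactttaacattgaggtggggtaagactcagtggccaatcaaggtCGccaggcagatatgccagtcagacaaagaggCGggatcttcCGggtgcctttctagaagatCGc
Zfp708: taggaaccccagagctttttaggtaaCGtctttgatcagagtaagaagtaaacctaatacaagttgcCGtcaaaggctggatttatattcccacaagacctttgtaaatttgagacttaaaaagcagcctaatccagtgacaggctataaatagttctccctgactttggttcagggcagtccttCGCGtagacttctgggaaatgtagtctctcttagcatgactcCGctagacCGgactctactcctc
Zfp933: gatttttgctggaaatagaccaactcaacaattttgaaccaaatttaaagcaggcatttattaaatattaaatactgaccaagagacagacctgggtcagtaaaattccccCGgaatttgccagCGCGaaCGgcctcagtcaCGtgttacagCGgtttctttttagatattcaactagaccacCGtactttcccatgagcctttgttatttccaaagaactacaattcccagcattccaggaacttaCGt
Gm13165: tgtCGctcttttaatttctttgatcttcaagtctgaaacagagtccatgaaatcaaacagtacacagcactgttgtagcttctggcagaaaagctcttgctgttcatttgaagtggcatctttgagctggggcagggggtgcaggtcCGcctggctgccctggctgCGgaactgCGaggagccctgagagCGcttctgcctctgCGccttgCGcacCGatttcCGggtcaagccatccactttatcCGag
Zfp982: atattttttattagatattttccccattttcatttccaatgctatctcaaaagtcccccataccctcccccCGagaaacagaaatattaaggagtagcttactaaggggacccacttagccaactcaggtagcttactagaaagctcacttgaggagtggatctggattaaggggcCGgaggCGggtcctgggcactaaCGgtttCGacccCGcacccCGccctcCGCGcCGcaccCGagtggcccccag
The number of CG in these stretches, counted from the letters, was 10 for Fv1, 11 for Miip, 6 for Zfp640, 6 for Zfp708, 8 for Zfp933, 10 for Gm13165 and 11 for Zfp982. Over 32851 RefSeq promoter windows of this length the median was 6. The MspI site CCGG, which reads the same on both strands and itself holds a CG, was present in all 7 and in 47.1% of all the windows. Windows could be placed only where at least 5 of their CpGs were listed in libraries cut at CCGG. Both contrasts with all windows can thus follow from that choice and are no result about these genes.

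Coverage differed between libraries in parts of the clusters, and this touches the results on chromosome 4. Of 3186 CpGs on chromosome 4 with a second count of at least 10 in WT and both K36M libraries, 257 (8.07%, 95% Clopper-Pearson interval 7.14% to 9.07%) had no coverage in either K9M library. The share was 0.693% on the rest of chromosome 4 and 0.0607% over the autosomes outside the clusters. On chromosome 2 it was 0 of 704 CpGs, which allows a share of up to 0.426%, and on chromosome 13 it was 0 of 1741, which allows up to 0.172%. The chromosome 4 stretch with such CpGs was wider than the cluster, with 27 bins of 0.5 Mb at 2% or more between 141.5 and 156 Mb. On chromosome 13, 71 of 1815 CpGs (3.91%, interval 3.07% to 4.91%) lacked coverage in K36M replicate 2 alone.

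**Figure D1:**
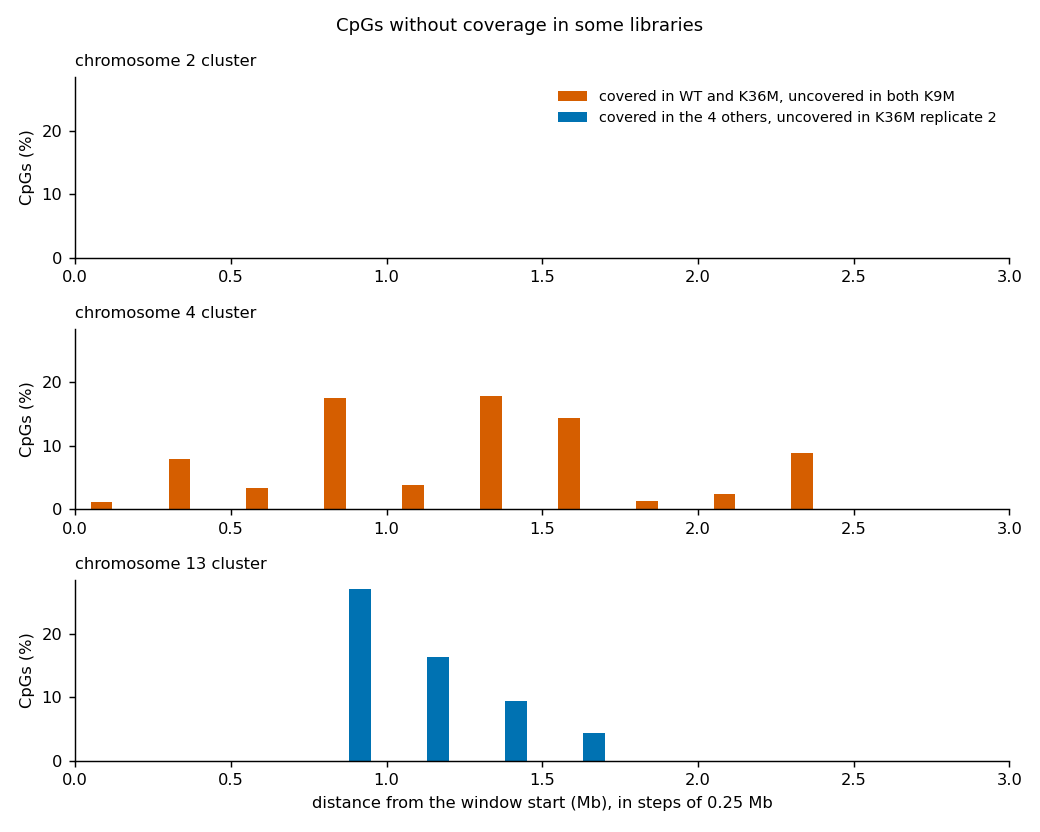
Share of CpGs without coverage in both K9M libraries (orange) or in K36M replicate 2 alone (blue), in percent of the CpGs covered in the other libraries, in steps of 0.25 Mb along the 3 clusters. The orange bars stand on chromosome 4 alone and reach 17.9%, the blue bars stand on chromosome 13 alone and reach 27.1%, and chromosome 2 has none.

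CpGs without coverage are not among the 4724, but neighbours can share their fragments. The depth of the K9M libraries relative to WT and K36M ran from 0.489 to 1.89 (percentiles 5 to 95) over the chromosome 4 tiles, against 0.881 to 1.27 on chromosome 2 and 0.825 to 1.30 on chromosome 13. A difference in sequence or copy number and a difference in the recovery of fragments cannot be told apart with these files. The part of coverage in the levels was not tested; counts of tiles without an uncovered CpG are given beside the results.

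By the mean over tiles the chromosome 2 cluster was the least methylated of the 3, and it was split into low and high tiles. Its mean tile level was 47.3% for WT, 47.6% and 48.5% for K36M, and 45.5% and 47.9% for K9M. Pooled over CpGs it stood at 45.3% for WT, 46.3% and 46.6% for K36M, and 44.8% and 44.5% for K9M, above the pooled chromosome 4 cluster in every library. In WT, 33 of its 75 tiles lay under 20%, 31 lay over 80%, and 11 lay between. Of the 24 tiles in the first 1.75 Mb, 21 lay under 20% in WT and 1 over 80%, while of the 51 tiles from there on 12 lay under 20% and 30 over 80%. In the 0.25 Mb step chr2:176000001-176250000 the pooled level was 2.48% for WT, 2.73% and 3.69% for K36M, and 2.62% and 2.45% for K9M. In the step chr2:176750001-177000000 it was 78.8% for WT, 76.7% and 77.6% for K36M, and 78.9% and 78.7% for K9M. These 2 steps stood in this order in all 5 libraries.

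On chromosomes 4 and 13 most tiles were highly methylated. The mean tile level of the chromosome 4 cluster was 66.8% for WT, 64.8% and 66.4% for K36M, and 65.3% and 67.5% for K9M. That of the chromosome 13 cluster was 67.9% for WT, 67.6% and 67.0% for K36M, and 67.3% and 70.2% for K9M. The K36M and K9M libraries overlapped in all 3 clusters on this value.

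**Figure D2:**
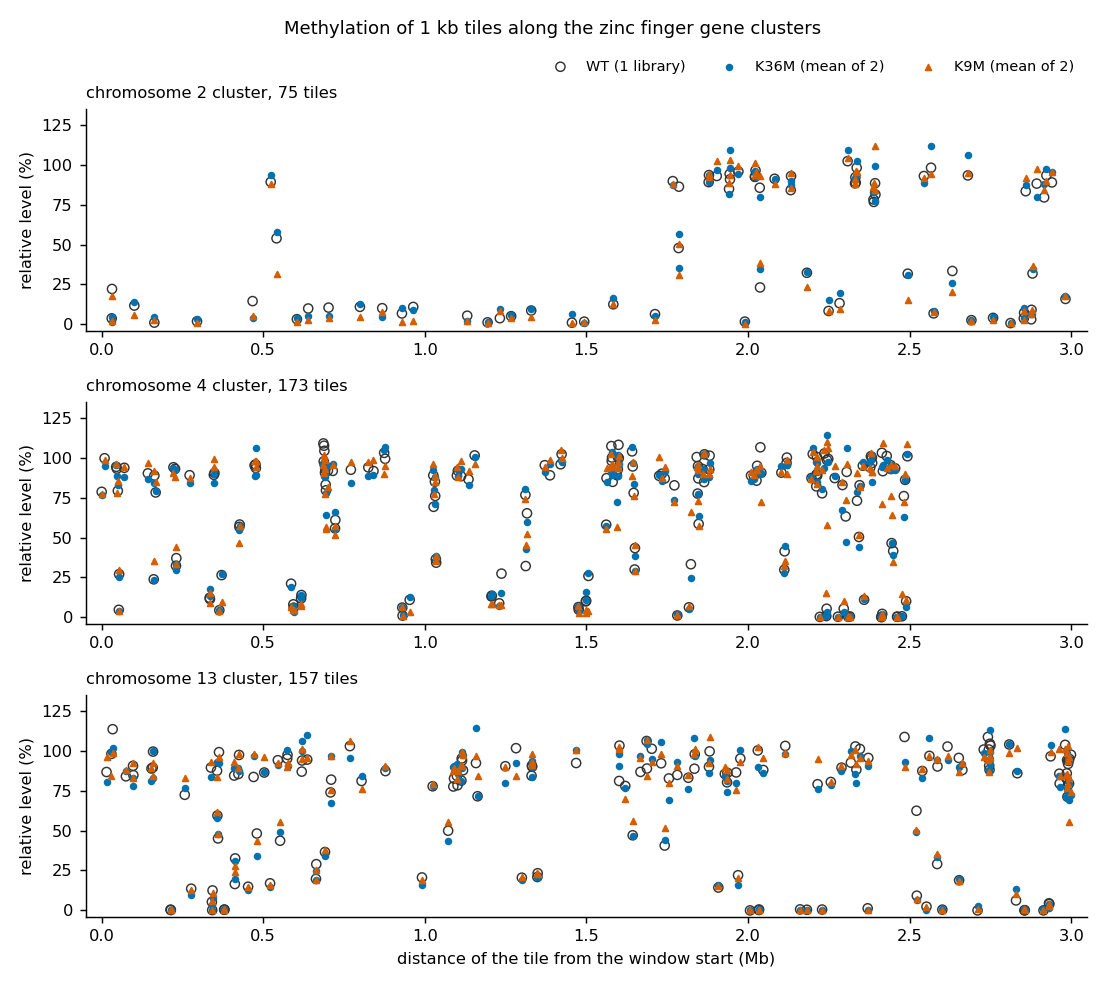
Relative level of each 1 kb tile (in percent of the plateau) against its distance from the start of the window in Mb, for WT (open circles), the mean of the 2 K36M libraries (blue) and the mean of the 2 K9M libraries (orange triangles). On chromosome 2 21 of the 24 tiles of the first 1.75 Mb lie under 20% in WT, while the chromosome 4 and 13 tiles mostly lie over 75%.

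The densest tiles of chromosomes 2 and 13 were unmethylated, while that of chromosome 4 was not. The tile with the most CpGs on chromosome 2, chr2:177853001-177854000 with 29 CpGs, stood at 3.79% for WT, 3.77% and 3.97% for K36M, and 3.0% and 2.05% for K9M. The one on chromosome 13, chr13:65342001-65343000 with 64 CpGs, stood at 0.204% in WT and at no more than 0.535% in the other libraries. The one on chromosome 4, chr4:145335001-145336000 with 98 CpGs, stood at 11.5% for WT, 15.0% and 11.4% for K36M, and 8.41% and 9.57% for K9M. Both K9M libraries were the lowest there, and no comparison called the tile. Among tiles with at least 10 CpGs, those highest in the mean over the 5 libraries stood in WT at 94.1% (chromosome 2), 99.3% (chromosome 4) and 88.8% (chromosome 13).

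Against other autosomal tiles weighted to the same numbers of CpGs per tile, the clusters stood lower. The cluster mean was 63.6% for WT, 62.7% and 63.3% for K36M, and 62.4% and 64.9% for K9M, while the weighted mean of other tiles was 70.2%, 67.9% and 68.6%, and 69.9% and 72.4%. The difference was -6.57 points for WT, -5.15 and -5.34 for K36M, and -7.46 and -7.48 for K9M. It lay below 0 in 5 of 5 libraries, with a mean of -6.40 points (two-sided exact sign-flip permutation test, p = 0.0625, the lowest value that 5 libraries can reach). All libraries share the same clusters, so this test asks only whether the offset repeats between libraries. It does not ask whether other regions of the genome have such an offset. Chromosome 2 carried most of it, at a mean of -28.15 points, against -0.884 on chromosome 4 and -2.08 on chromosome 13. On chromosome 4, K36M replicate 2 stood 0.471 points above its weighted rest. Without the chromosome 4 cluster the difference was -10.51 points.

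The clusters stood 5.25 points (± 0.130, SD, n = 2) under the weighted rest in K36M and 7.47 points (± 0.0101, SD, n = 2) under it in K9M. A two-sided exact permutation test of that contrast gave p = 0.333, the lowest value that 2 libraries against 2 can reach. The values of the cluster tiles themselves moved little: K36M lay 0.606 points and the weighted rest 1.93 points below WT.

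**Figure D3:**
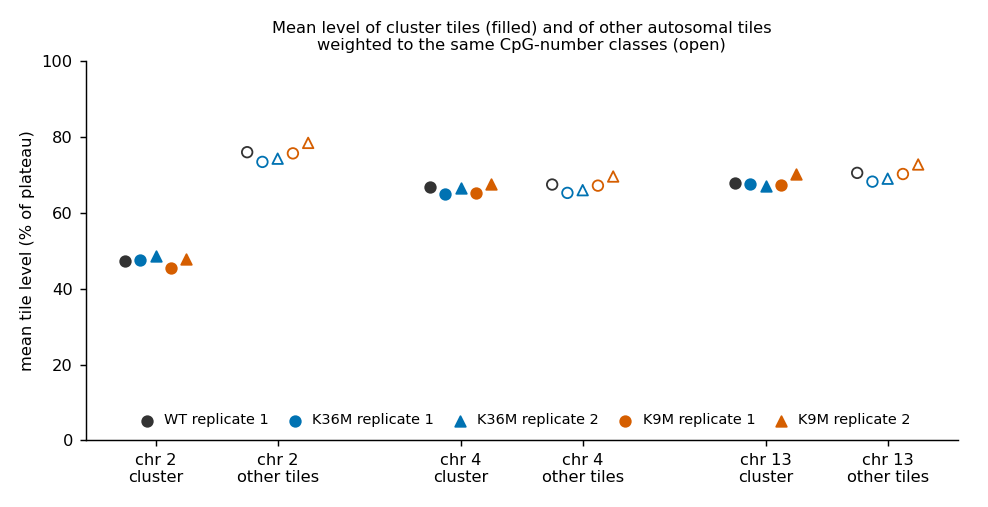
Mean tile level (in percent of the plateau) of each cluster (filled) and of all other autosomal tiles weighted to the CpG-number classes of that cluster (open), per library; circles are replicate 1 and triangles replicate 2. The chromosome 2 cluster lies between 45.5% and 48.5%, under its weighted rest at 73.4% to 78.4%, while the other clusters lie close to theirs.

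The low mean of chromosome 2 was also found in tiles with few CpGs. Among tiles with 3 to 9 CpGs, the mean over the 5 libraries was 52.8% in the chromosome 2 cluster, against a median of 82.9% over 806 autosomal bins of 3 Mb outside the clusters, and 1 bin lay lower. For chromosome 13 the mean was 74.5%, with 43 bins lower, and for chromosome 4 it was 78.6%, with 166 bins lower. Tiles with more CpGs were low on chromosome 2 as well. Its tiles with 10 to 19 CpGs stood at 34.8% in WT against 62.9% elsewhere, and its 2 tiles with 20 to 39 CpGs at 6.46% against 28.8%. Over the 3 clusters only the densest class went the other way. The 14 cluster tiles with 40 or more CpGs stood at 20.7% for WT, 21.0% and 21.0% for K36M, and 20.3% and 21.3% for K9M, where such tiles elsewhere stood at 5.81% in WT. Of these 14 tiles, 11 lay on chromosome 4 and 3 on chromosome 13.

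CpGs of intermediate level were frequent in the clusters. In WT, 23.6% of the cluster CpGs stood at 20% to 80%, against 9.49% of the other autosomal CpGs. The share was 29.5% and 25% in K36M and 24.9% and 20.3% in K9M, against 14.2% and 12.5%, and 11.9% and 7.29% elsewhere. It was higher in the clusters than elsewhere in all 5 libraries. The share in WT was 17.1% on chromosome 2, 26.3% on chromosome 4 and 22.1% on chromosome 13.

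The clusters held many stretches with the same CG spacing, as duplicated sequence does. Runs of 6 neighbouring CpGs within 300 bases whose spacing recurred within the same cluster made up 328 of 628 runs (52.2%) on chromosome 2, 1062 of 2942 (36.1%) on chromosome 4 and 371 of 1832 (20.3%) on chromosome 13. The median over 803 autosomal bins of 3 Mb was 7.77%, and 2, 34 and 166 bins lay above the respective cluster. The files do not say how reads that fit several copies were treated, so copies can share reads. Copies of some spacings differed in level. A spacing on chromosome 2 with 4 fully covered copies of 5 stood in WT at 58.5% (from 175541722), 13.4% (from 176583738), 92.4% (from 176786066) and 7.69% (from 177758402). In K9M replicates 1 and 2 these copies stood at 29.8% and 44.4%, 16.5% and 13.7%, 49.0% and 52.8%, and 4.49% and 5.47%, so the lowest copies were low in every library. The copies from 175541722 and 176786066 lie in tiles described below, chr2:175541001-175542000 and chr2:176786001-176787000. Copies of other spacings stood close together. On chromosome 4, a spacing with 3 fully covered copies of 4 stood in WT at 25.5%, 27.3% and 24.7%.

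Of the promoter windows tried, 31 windows of 28 genes could be placed in the clusters, each at 1 autosomal site, and 29 of 29 neighbouring pairs stood in RefSeq order. Weaker matches had been kept only where they lay in that order. The count could thus not fail for them and is no independent check of their placement. On chromosome 13, 18 genes were placed, of which 8 are named Zfp. On chromosome 4, 10 genes were placed, of which 1 is named Zfp, and on chromosome 2 none was placed at a single site. From the Miip window, which begins at chr4:147242576, to the end of the chromosome 4 cluster the placed genes are Miip, Fv1, Mfn2 (mitofusin 2, of mitochondrial fusion), Plod1 (a collagen lysyl hydroxylase), 2510039O18Rik, Nppb (a natriuretic peptide), Clcn6, Gm13201 and Agtrap. None of these encodes a zinc finger protein, and Zfp933 was the only gene placed before them.

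Zinc finger promoters placed at 1 site were unmethylated in all libraries with 1 exception. Of the 8 placed Zfp promoters that held any of the 4724 CpGs, 7 stood under 5% in all 5 libraries, and the highest of their values was 2.34%. Those of Zfp459 and Zfp874a rest on 2 CpGs each. Low levels were also usual at the other placed genes, where 9 of 14 with such CpGs stood under 5% in all 5 libraries. Zfp708 stood at 0.448% for WT, 0.476% and 0.476% for K36M, and 0.431% and 0.703% for K9M over 5 CpGs. Zfp933, the zinc finger gene placed nearest to Fv1, stood at 0.172% for WT, 0.225% and 0.740% for K36M, and 0% and 0.354% for K9M over 7 CpGs. Zfp640 was the exception, at 84.8% for WT, 89.6% and 96.6% for K36M, and 98.1% and 83.0% for K9M over 5 CpGs. Its 5 libraries were high without an order by group. The ninth placed name, Zfp85os, held none of the 4724 CpGs.

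Promoter spacings that fitted several places stood far below Zfp640, and some of their values lay under 5% as well. The Gm13165 spacing, over 17 CpGs at each of 2 places on chromosome 4, stood at 15.0% and 13.3% in WT, at 17.6% and 15.0% in K36M replicate 1 and at 13% and 11.9% in K36M replicate 2. In the K9M libraries both places were lower, at 8.30% and 7.95% in replicate 1 and 11.1% and 10.1% in replicate 2. The Zfp982 spacing stood at 12.5% in WT over 12 CpGs from 146230430 and at 3.62% over 15 CpGs from 146816973. At the first place K36M stood at 13.3% and 8.15% and K9M at 12.2% and 12.5%, which overlap. At the second place the K9M libraries were higher, at 7.55% and 8.59%, than the K36M libraries, at 2.71% and 4.16%. The Zfp965 spacing fitted 5 places on chromosome 2, where all CpGs covered in every library, most of them too shallow for the rule, gave 12.3% to 23.9% in WT, 2.04% to 30.6% in K36M and 2.08% to 17.5% in K9M, so these ranges overlapped.

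Against WT, no cluster tile passed the test in K36M. By the logistic model with dispersion moderated by limma and Benjamini-Hochberg adjustment over 152678 tiles, 0 of 405 cluster tiles were called lower, where 0.553% of all tiles were, and 0 were called higher, where 0.0177% were. A call needed an adjusted p under 0.05 and a difference of at least 10 points. At an unadjusted p under 0.05, 18 cluster tiles were lower and 9 higher, which is 6.67% of them, against 5.38% of all tiles. limma on relative levels called 2 cluster tiles lower and 0 higher, and 261 of all 152678 tiles in either direction. Among the tiles at 20% to 80% in WT, the 79 in the clusters had a mean of 51.8% for WT, 51.1% and 50.3% for K36M, and 49.7% and 54.7% for K9M. The 21488 tiles of that class elsewhere stood at 60.4% for WT, 57.0% and 57.5% for K36M, and 62.5% and 66.5% for K9M. The K36M mean thus lay 1.10 points under WT in the clusters and 3.12 points under it elsewhere; with 1 WT library neither value has a test.

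Some tiles differed between K36M and WT without a call. The largest difference downward on chromosome 2 was at chr2:176786001-176787000, which stood at 86.2% for WT, 58.8% and 53.8% for K36M, and 47.9% and 53.1% for K9M, so both mutants lay under the lone WT library. Its adjusted p with limma-moderated dispersion was 0.256 for K36M and 0.326 for K9M. That on chromosome 13 was at chr13:67999001-68000000, which stood at 97.4% for WT, 70.4% and 74.1% for K36M, and 65.3% and 83.2% for K9M, and its adjusted p in K36M was 0.991. On chromosome 4, chr4:146594001-146595000, whose 2 K36M libraries lay close together, stood at 89.1% in WT and 72.2% and 72.7% in K36M, with an adjusted p of 0.335. Upward, the largest difference was at chr13:66158001-66159000, at 92.2% in WT and 114% and 115% in K36M.

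Against WT, K9M was higher at the promoters of Fv1 and Miip. Fv1, a gene derived from an endogenous retrovirus that restricts infection by murine leukemia virus, and Miip, whose product is known as an inhibitor of cell migration and invasion, start close together on opposite strands. The Fv1 window, chr4:147242838-147243137, stood at 0.799% for WT, 0.996% and 0.633% for K36M, and 35.2% and 18.6% for K9M over 11 CpGs. The Miip window, chr4:147242576-147242875, stood at 0.762% for WT, 0.694% and 0.607% for K36M, and 15.5% and 10.6% for K9M over 15 CpGs. WT and both K36M libraries were near 0, and both K9M libraries lay above them with a gap between replicates. A second RefSeq window of Miip, chr4:147242779-147243078, overlaps both and stood at 28.2% and 15.5% in K9M and under 2% in the other libraries. The promoter of Zfp933 and those of Mfn2, Plod1, Clcn6 and Agtrap on either side stood under 1% in all 5 libraries. Nppb, in the same stretch, stood at 17.2% for WT, 13.2% and 17.2% for K36M, and 18.3% and 21.9% for K9M over 3 CpGs. Gm13201 held none of the 4724 CpGs.

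The 2 tiles that hold these starts were both called by the logistic model. The tile chr4:147243001-147244000, with 9 CpGs from near the Fv1 start into the gene, stood at 5.44% for WT, 4.05% and 3.12% for K36M, and 69.9% and 45.4% for K9M. K9M exceeded WT by 52.2 points, with an adjusted p of 0.00152 (logistic model, limma-moderated). The tile chr4:147242001-147243000, with 28 CpGs, stood at 0.845% for WT, 0.786% and 0.494% for K36M, and 18.5% and 11.6% for K9M, a difference of 14.2 points with an adjusted p of 0.00168 by the same model. With limma on relative levels neither was called against WT, at adjusted p of 0.311 and 0.333. Neither tile held an uncovered CpG, and the depth of K9M relative to the other libraries was 0.875 and 0.941. At 1 CpG, described below, K9M was shallower than at its neighbour.

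Over the 37 CpGs of these tiles, 36 were higher in both K9M libraries than in WT and K36M. The tiles were picked by their calls, and their CpGs come from the same libraries and can share fragments. The count thus describes the tiles and adds no support to the calls. The 30 CpGs before the Fv1 start pooled to 0.862% for WT, 0.757% and 0.470% for K36M, and 19.5% and 12.0% for K9M. The 7 CpGs from the start on pooled to 6.45% for WT, 5.40% and 4.11% for K36M, and 75.3% and 53.3% for K9M. The pooled level was thus higher from the start on than before it in all 5 libraries, not in K9M alone. At the CpGs from 12 to 70 bases after the start, however, WT stood at 0% and K36M at 0% to 4.86%. K9M replicate 1 stood there at 58.3% to 75.9%. The higher pooled level of WT thus came from the CpGs at 468 and 520 bases alone. In K9M replicate 2 the CpGs from 12 to 70 bases after the start stood at 26.9% to 37.4%. Those at 468 and 520 bases stood at 97.1% and 102% there, and WT had its highest levels at the same CpGs, 9.00% and 27.0%. The CpG that was not higher in K9M, 112 bases before the start, stood at 0% in both K9M libraries between neighbours at 35.0% and 45.5% in K9M replicate 1. Its second count was 16 and 13 in K9M, against 25 and 40 at the CpG at -114 bases. In WT it was 26 against 25, and in K36M 34 against 34 and 48 against 48. The cause of this local loss of depth in K9M was not tested.

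**Figure D4:**
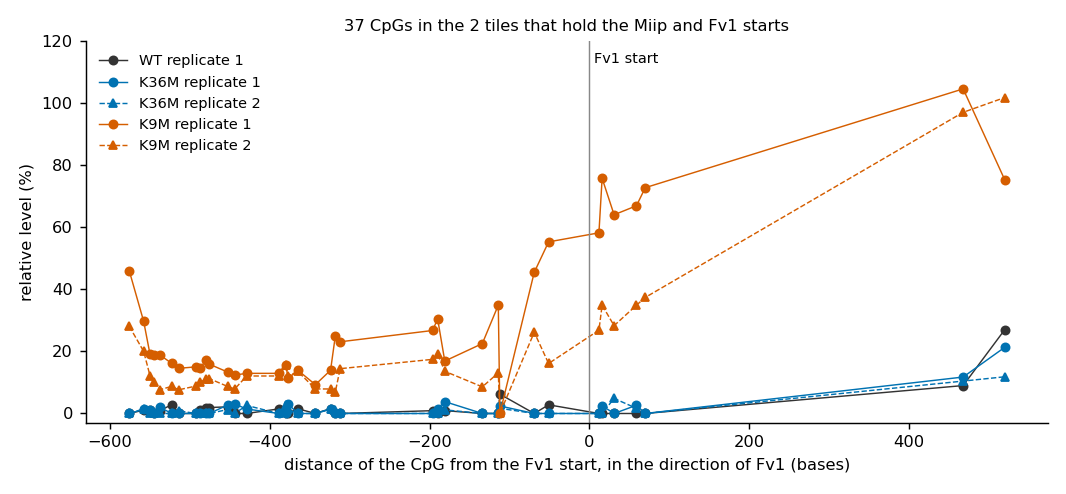
Relative level (in percent of the plateau) of the 37 CpGs in the tiles that hold the Miip and Fv1 starts, against the distance in bases from the Fv1 start; each line is 1 library, solid for replicate 1 and dashed for replicate 2. WT and K36M stay at or under 6.23% up to 70 bases after the start, while both K9M libraries lie above them at all CpGs but the one at -112 bases.

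In all, K9M against WT called 3 cluster tiles higher of 405, where 0.0616% of all tiles were called, and 1 lower, where 0.0308% were. At an unadjusted p under 0.05, 11 cluster tiles were higher and 36 lower, together 11.6% of them, against 2.99% of all tiles, where 2575 were higher and 1991 lower. The third higher tile, chr4:147476001-147477000 with 15 CpGs, lay 13.8 kb from the nearest placed start, that of Agtrap. It stood at 0.680% for WT, 0.726% and 0.928% for K36M, and 14.2% and 14.6% for K9M, with an adjusted p of 0.000583 by the limma-moderated model, and held 1 CpG uncovered in K9M. All 3 higher tiles lay in the stretch of genes that are not zinc finger genes: in the window ended before Miip, 0 tiles were called higher and 1 lower.

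The lower tile lay 628 kb from the nearest placed start, that of Zfp933. At chr4:146594001-146595000, with 13 CpGs, WT stood at 89.1%, K36M at 72.2% and 72.7% and K9M at 57.2% and 55.4%. K9M lay 32.7 points under WT, with an adjusted p of 0.0366 by the limma-moderated model. It held no uncovered CpG, and the depth of K9M relative to WT and K36M was 0.700. Leaving out any 1 of the 4 mutant libraries ended this call, with adjusted p from 0.104 to 0.329. All 4 tiles lay on chromosome 4; on chromosomes 2 and 13 none was called.

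**Figure D5:**
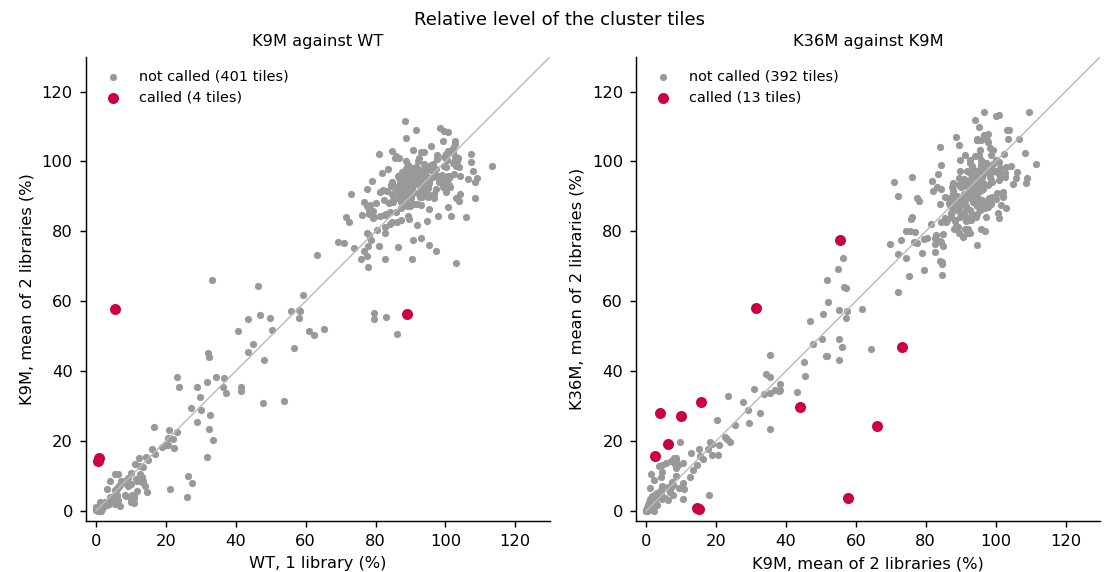
Relative level of the 405 cluster tiles (in percent of the plateau): K9M against WT at left and K36M against K9M at right, with called tiles in red and the line of equal levels in grey. The 4 called tiles at left include Fv1 at 57.6% in K9M and 5.44% in WT; the 13 called tiles at right lie on both sides of the line.

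Between the mutants, tiles differed in both directions. K36M was called lower than K9M in 6 of the 405 tiles, where 1.32% of all tiles were, and higher in 7, where 0.0806% were. The share called lower, 6 of 405, was thus near that of all tiles. Of the 13 tiles, 11 lay on chromosome 4, 2 on chromosome 2 and 0 on chromosome 13. The 6 lower tiles include the 3 called against WT at Miip, Fv1 and chr4:147476001-147477000, with adjusted p of 3.61e-05, 1.42e-05 and 3.61e-05 by the limma-moderated model. Without the tiles that hold an uncovered CpG, 3 were lower and 7 higher. By limma the lower tiles numbered 2 and the higher ones 3, where 1124 of all 152678 tiles were called in either direction. Leaving out K36M replicate 1, K36M replicate 2 or K9M replicate 1 left 3 lower tiles, and leaving out K9M replicate 2 left 4. The higher tiles numbered 2 on leaving out either K36M library. They numbered 4 on leaving out K9M replicate 1 and 5 on leaving out the other K9M library. Counts over all tiles are not given for these runs, so the cluster counts have no rate beside them.

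In the 7 tiles called higher in K36M, both K9M libraries stood below WT and both K36M libraries. The order of the mutants goes with the call that picked these tiles. Both K36M libraries lay above both K9M libraries in 20.7% of all cluster tiles and in 12.9% of the other autosomal tiles. On chromosome 2, chr2:175541001-175542000 with 14 CpGs stood at 53.9% for WT, 61.4% and 54.8% for K36M, and 25.8% and 37.3% for K9M, with an adjusted p of 0.0111 (limma-moderated). Also on chromosome 2, chr2:177494001-177495000 with 9 CpGs stood at 31.8% for WT, 32.3% and 29.9% for K36M, and 14.8% and 16.3% for K9M, with an adjusted p of 0.0102 (limma-moderated). In both tiles the lone WT library lay nearer to K36M than to K9M. K9M against WT was not called there, with adjusted p of 0.236 and 0.114, and no CpG of these tiles was uncovered.

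The 5 others lay on chromosome 4, and 1 of them, chr4:145693001-145694000, was highly methylated, at 83.1% for WT, 72.5% and 82.7% for K36M, and 57.1% and 53.8% for K9M. The clearest, chr4:146498001-146499000 with 10 CpGs, stood at 10.0% for WT, 19% and 12.6% for K36M, and 3.14% and 2.11% for K9M, with an adjusted p of 0.000254 (limma-moderated). A run of 6 CpGs in this tile, from 146498928, has a spacing with 5 sites, 4 of them covered in full. Its copy from 145953568 stood at 15.9% for WT, 17.7% and 22.8% for K36M, and 4.81% and 3.79% for K9M. K9M was thus lowest at that copy too. The copy from 146230606 had overlapping mutants, with K9M at 13.7% and 17.9%. At the copy from 146817149 K9M was the highest, at 6.69% and 7.23%. Whether these copies shared reads was not tested. At chr4:146506001-146507000, with 3 CpGs, WT stood at 26%, K36M at 30.1% and 26.1% and K9M at 4.26% and 3.45%. There the depth of K9M was 2.08 times that of the other libraries. It was 2.06 times at chr4:145371001-145372000, 1.91 times at chr4:145586001-145587000 and 0.651 times at the highly methylated tile, so K9M stood apart in depth as well as in level in most of these tiles.

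The lower tiles of K36M outside the Miip and Fv1 stretch were mixed. At chr4:145230001-145231000, with 24 CpGs, WT stood at 32.3%, K36M at 29.2% and 30.3% and K9M at 47.1% and 41.0%. In this tile a run of 6 CpGs from 145230619 stood at 37.2% in WT and at 83.3% and 93.4% in K9M, while the copies of its spacing from 146034711 and 146649647 stood in WT at 43.5% and 31.8% and in K9M at 31.5% and 37.2%, and 30.3% and 32.0%. The spacing had 5 sites, of which these 3 were covered in full, and 1 of the 3, chosen here after its values were seen, was higher in both K9M libraries. At chr4:146823001-146824000, with 3 CpGs, K36M stood at 23.9% and 24.8% and K9M at 76.2% and 55.9%. At chr4:147302001-147303000, with 6 CpGs, K36M stood at 47.9% and 45.9% and K9M at 71.8% and 74.9%, and 3 CpGs of that tile were uncovered in K9M.

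No single cluster CpG was called in any of the 3 comparisons by the same model over 1780536 CpGs, where the whole table also gave 0 calls. At an unadjusted p under 0.05 there were 0 cluster CpGs for K36M against WT, 89 (1.88%) for K9M against WT and 143 (3.03%) for K36M against K9M. The shares over all autosomes were 0.204%, 0.0730% and 0.446%. These lay far under the share that a threshold of 0.05 passes without any difference. The test per CpG was thus so strict that its 0 calls say little about the clusters.

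Pooled over all 4724 CpGs, the level was 45% for WT, 44.0% and 44.1% for K36M, and 40.7% and 41.9% for K9M. K36M lay 2.75 points above K9M (two-sided exact permutation test, p = 0.333, the lowest value open to this design). The mean over tiles did not show this: it was 63.0% ± 0.413 for K36M and 63.7% ± 1.77 for K9M (SD, n = 2 for each), a difference of -0.662 points with an exact permutation p of 1. The difference was largest on chromosome 4, whose CpGs were the deepest with a median second count of 69 in WT. Pooled there, WT stood at 41.0%, K36M at 39.9% and 40.1% and K9M at 35.7% and 36.6%. On chromosome 2 the pooled K36M mean lay 1.80 points above K9M, without overlap of the libraries. On chromosome 13 it went the other way, at -0.337 points. Without chromosome 4 the pooled difference was 0.185 points, with an exact permutation p of 1.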

How the data were processed

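The authors trimmed reads with cutadapt and aligned them to mm9 with BSMAP, per the submitters' processing notes; versions, settings, deduplication and the formula of the level are not given in the sources used here. For every CpG the deposited tables hold the level, a fraction from 0 to 1, and a total, a whole-number count. The product of level and total, rounded, was the methylated count. It was whole within 0.01 for 89.2% of CpGs in K9M replicate 2 and for 100% in the other libraries.

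The members, lists and settings were chosen with earlier results of these data known. Positions count from 1, taking deposited starts as counted from 0. The plateau was the median ratio over the 20% of tiles highest in mean rank: 1.23 in WT, 1.22 and 1.26 in K36M, 1.37 and 0.954 in K9M. A change common to all CpGs of a library cannot be seen on this scale. Tiles were fitted over all 152678 autosomal tiles (1642128 CpGs) with a quasi-binomial logistic model, the log plateau as offset, dispersion moderated by limma 3.58.1 (R 4.3.3) with a floor of 1, which held in most tiles (22.2% lay above it), and an F test. The single fit over all 5 libraries leaves residual spread only within the K36M and K9M pairs (2 degrees of freedom), which stands in for that of WT. The fit was also run on simulated counts.

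Tiles were named by rule: all called ones (in a comparison with more than 10, the 10 of largest difference, beside which the text adds others by value), the largest differences without overlap, and the densest, highest and lowest per cluster. The designed rule assigned no gene without an mm9 annotation; placing promoters by CG spacing was added after the data were seen. A window was placed where at least 5 CpGs listed in 2 or more libraries fell on its CGs and none fell elsewhere. It covered 250 bases before and 50 after the start. A match needed a score, the matching CpGs times log10 of the CGs per base, of -7 or lower. A match at 1 place that scored above -9 also had to lie in RefSeq order between the stronger ones. It could lie no more than 50 windows from the nearest of them, and 1 candidate was dropped. Alternatives were other count minimums, plateaus, tests, tile sizes, depth limits, a replicate block and leaving out libraries. Python 3.11.15 was used.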

Additional observations from a re-analysis of the deposited data

Results flagged for a closer look

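A signal outside the methylation levels appeared on chromosome 4: 257 CpGs of the cluster were covered in WT and both K36M libraries and had no coverage in either K9M library. The reverse, CpGs covered in WT and K9M and uncovered in both K36M libraries, was seen 0 times in 2448, which allows a share of up to 0.123%. On chromosome 13, 71 CpGs were covered in the other 4 libraries and uncovered in K36M replicate 2, between 65.5 and 66.5 Mb for most of them. The same library had such stretches on chromosomes 8, 12 and 16, and both K9M libraries also had some on chromosomes 7 and 14. The part of these gaps in the called tiles was not tested beyond the counts given beside the results.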

How the results depend on the processing

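The counts of called tiles are small and moved with the settings. K36M against K9M, higher in 7 tiles, gave 2 without the chromosome 4 cluster, 3 with limma on relative levels and 2 to 5 when 1 mutant library was left out. Its 6 lower tiles became 3 among tiles with no uncovered CpG, 2 in the window ended before Miip, 0 without the chromosome 4 cluster, 2 with limma and 3 to 4 without 1 library. K9M against WT, higher in 3, gave 0 in the window ended before Miip, 0 without chromosome 4 and 1 with limma. Its 1 lower tile became 0 without chromosome 4, with a minimum of 5 or with a plateau set on the top 40% of tiles, 4 with at least 5 CpGs per tile, and 0 to 1 without 1 library. K36M against WT gave 2 lower tiles with limma. Over all tiles limma on relative levels called 261 for K36M against WT, 69 for K9M against WT and 1124 for K36M against K9M. With the replicate number as a block, calls were 1 higher and 3 lower for K36M against K9M, 0 higher and 0 lower for K9M against WT, and over all tiles 0, 0 and 520 in the order K36M against WT, K9M against WT and K36M against K9M, in place of 872, 141 and 2140. The labels do not say that numbers pair libraries, and same-numbered deviations correlated at 0.0773 over all tiles and 0.0539 over cluster tiles.

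The mean tile level of K36M minus K9M turned to 0.632 points under this wider plateau, and ran from -1.91 to 0.587 points without 1 library. K36M minus WT was 0.186 points with that plateau and -0.185 without chromosome 4, and K9M minus WT was 12.3 points with levels as deposited, where K9M replicate 2 stands on another scale by construction. The pooled K36M minus K9M turned to -2.65 points with levels as deposited and to -0.136 with the mean over CpG levels. The cause of the other moves was not tested. K9M against WT remained called at the Fv1 and Miip tiles in 9 of 11 settings each, lost with limma (adjusted p 0.311 and 0.333) and the replicate block (0.183 and 0.0835), at chr4:147476001-147477000 in 10 of 11, lost with the block (0.249), and at chr4:146594001-146595000 in 3 of 11. K36M against K9M remained called at the Fv1 and Miip tiles in 11 of 12 each and at chr4:147476001-147477000 in 12 of 12. Of the other tiles, chr4:146498001-146499000 remained so in 10 of 12, chr4:146506001-146507000 in 9 of 11, chr2:177494001-177495000 in 8 of 12 and chr2:175541001-175542000 in 7 of 12. The count was 6 of 12 at chr4:145230001-145231000 and chr4:145371001-145372000, 5 of 12 at chr4:145693001-145694000 and chr4:147302001-147303000, 5 of 11 at chr4:145586001-145587000 and 2 of 10 at chr4:146823001-146824000. Settings with no uncovered CpG, the shortened chromosome 4 window and no chromosome 4 were chosen after seeing the data. WT was not left out of its own comparisons, since it has 1 library. Second counts per CpG, with medians of 36 to 47 in the clusters, limit what single CpGs can show, and the test per CpG was strict.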
